A study of Mus musculus with 6 samples.

Results

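The HOX cluster genes encode homeodomain transcription factors that lie side by side in 4 clusters, HOXA, HOXB, HOXC and HOXD. They were chosen by name, as 38 HOX genes of the 4 clusters, among 18460 genes listed in at least 1 of 6 mouse breast tumors, and 29 of the 38 were listed in at least 1 tumor. Within a cluster the genes are numbered by paralog group from 1 to 13, counted from the 3′ end. Genes of low number act toward the head and genes of high number toward the tail, and adult cells usually keep the HOX code of the body region in which they arose. HOX proteins bind DNA together with cofactors of the PBX, MEIS and PKNOX families, and chromatin proteins of the Polycomb and Trithorax groups hold the clusters silent or active. In the mammary gland, members of paralog group 9 are known to be needed for growth of the gland.

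RNA was sequenced from whole tumors of BALB/c mice. The test group was K14-TSLPtg;PyMTtg;Rag1KO+CD4+ T cells (n = 3) and the control group was PyMTtg;Rag1KO+CD4+ T cells (n = 3), so that the K14-TSLPtg allele, which expresses thymic stromal lymphopoietin in keratinocytes from the K14 promoter, was the difference between the groups. All 6 mice carried the PyMTtg oncogene, expressed in mammary epithelium from the MMTV promoter, and Rag1KO, so that their own T and B cells were missing. All 6 had been injected with sorted CD4+ T cells when 4 wk old, and the labels give an endpoint of 18 to 20 wk for the tumors. The labels do not say which mammary gland each tumor came from, which is a limit for genes that depend on body position. Tumors came from separate mice, and whole tissue holds other cells beside the tumor cells. Fewer cells of a type and less RNA per cell cannot be told apart in such samples.

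Total expected counts, which are the authors' estimates of the reads per gene, ran from 8373390 to 9449565 per tumor. A floor of 3 counts, about 0.317 to 0.358 CPM (counts scaled to the library total), was used as the lowest level that counts as seen. This floor deals with counting error alone. Levels are given as the deposited FPKM, which are scaled to the length of the gene and the depth of the library, because counts cannot be compared between genes of different length. *Tslp* was listed at 12, 7 and 2 counts in the test tumors and at 2, 2 and 3 counts in the control tumors, so it was above the control range in test replicates 1 and 2 and not in test replicate 3. Reads of the transgene and of the mouse's own gene cannot be told apart here. *Rag1* was listed at 6, 12 and 9 counts in test and 27, 4 and 10 counts in control. The part of *Rag1* removed by the knockout is not given in the sources used here, so these counts do not check the genotype. Epithelial markers were present in every tumor, and all 5 luminal markers (*Epcam*, *Krt8*, *Krt18*, *Krt19* and *Cdh1*) were above 0 in all 6.

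HOX genes were low in these tumors. The highest mean over the 6 tumors was that of *Hoxa3*, at 3.46 FPKM, and 43.8% of the listed genes had a lower mean. The median of all listed genes was 5.18 FPKM. *Hoxa3* was followed by *Hoxa4* at 2.33 FPKM, *Hoxd11* at 1.95 FPKM, *Hoxa2* at 1.5 FPKM, *Hoxb2* at 1.2 FPKM and *Hoxd8* at 1.11 FPKM, and the other members had means under 1 FPKM. The ranges of these 6 genes over the tumors overlap, so their order is not separated by the spread between tumors. Of the 29 listed members, 22 exceeded the floor in at least 1 tumor, and *Hoxa3*, *Hoxb3*, *Hoxb4*, *Hoxb8* and *Hoxd11* exceeded it in all 6. The 9 members listed in no tumor were *Hoxa11*, *Hoxb1*, *Hoxb13*, *Hoxc11*, *Hoxc12*, *Hoxc13*, *Hoxd1*, *Hoxd12* and *Hoxd13*. With the exception of *Hoxb1* and *Hoxd1*, these belong to paralog groups 11 to 13. Among them are *Hoxb13*, known from the prostate, *Hoxc13*, a regulator of hair keratins, and *Hoxd13*, which patterns the digits. All 9 were set to 0, which allows a level of up to 3 counts in each tumor if the authors' gene reference held them. Whether it did is not given in the sources used here.

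The start regions of 3 members that differed widely between tumors are printed here, to show the sequence before the genes that the comparisons turn on. Each is the 250 bases before a RefSeq start on GRCm38.p6, read 5′ to 3′ on the strand of the gene, and capitals mark TGATNNAT on either strand, a word bound by HOX and PBX together, and TAATTA, a core homeodomain word. For *Hoxa2* (chr6:52164832-52165081, minus strand), *Hoxa3* (chr6:52213068-52213317, minus strand) and *Hoxd11* (chr2:74682073-74682322, plus strand, the second of 2 starts), the sequences were:
Hoxa2: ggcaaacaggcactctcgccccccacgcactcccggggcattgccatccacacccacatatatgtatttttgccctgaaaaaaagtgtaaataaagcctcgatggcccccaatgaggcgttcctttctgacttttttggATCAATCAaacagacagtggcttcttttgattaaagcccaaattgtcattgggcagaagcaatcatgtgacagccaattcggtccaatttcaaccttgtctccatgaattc
Hoxa3: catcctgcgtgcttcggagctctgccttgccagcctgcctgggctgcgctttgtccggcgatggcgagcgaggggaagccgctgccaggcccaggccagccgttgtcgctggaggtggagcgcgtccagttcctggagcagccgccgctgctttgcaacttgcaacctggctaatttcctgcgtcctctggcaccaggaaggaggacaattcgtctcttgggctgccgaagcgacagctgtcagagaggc
Hoxd11: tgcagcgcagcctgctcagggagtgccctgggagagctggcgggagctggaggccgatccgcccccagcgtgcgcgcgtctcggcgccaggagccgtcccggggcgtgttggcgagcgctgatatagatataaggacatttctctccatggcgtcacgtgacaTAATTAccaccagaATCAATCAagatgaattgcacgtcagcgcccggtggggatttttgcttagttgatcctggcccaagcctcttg

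The *Hoxa2* window held 1 match of the HOX and PBX word and 46.4% G and C. The *Hoxa3* window held no match of either word and 64.8% G and C, and the *Hoxd11* window held 1 match of each. RefSeq windows were given for 22 of the 38 members (24 windows). They had a median of 58.6% G and C and a median observed over expected CpG ratio of 0.72, against 52.4% and 0.37 in all 32851 windows of 27025 genes. A ratio over 0.6 was found in 54.2% of the member windows and 34.0% of all windows. The word TGATNNAT was in 16.7% of the member windows and 7.7% of all windows, and TAATTA was in 8.3% and 4.8%. Both member windows with TAATTA belong to *Hoxd11*, and its other start, at chr2:74679308-74679557, held that word without TGATNNAT. *Hoxa4* and *Hoxb2* had no window. These are descriptions of sequence and not of binding.

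Summed over the members of a cluster, HOXA separated 2 control tumors from the other 4 tumors, while HOXB, HOXC and HOXD were spread through both groups. The summed HOXA level was 1.79, 4.47 and 0.35 FPKM in test replicates 1, 2 and 3, and 28.6, 1.09 and 15.5 FPKM in control replicates 1, 2 and 3. Control replicates 1 and 3 thus stood above every test tumor, and control replicate 2 lay within the test range. The summed HOXB level was 4.04, 5.02 and 1.6 FPKM in the test tumors and 8.39, 2.67 and 2.55 FPKM in the control tumors. The summed HOXC level was 2.02, 3.63 and 0.26 FPKM in the test tumors and 0.41, 1.42 and 1.65 FPKM in the control tumors. The summed HOXD level was 4.05, 8.38 and 2.93 FPKM in the test tumors and 0.67, 3.06 and 4.27 FPKM in the control tumors. Control replicate 1 was the highest of the 6 tumors for HOXA and HOXB and the lowest for HOXD, and test replicate 2 was the highest for HOXC and HOXD. Test replicate 3 was the lowest for HOXA, HOXB and HOXC.

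**Figure D1:**
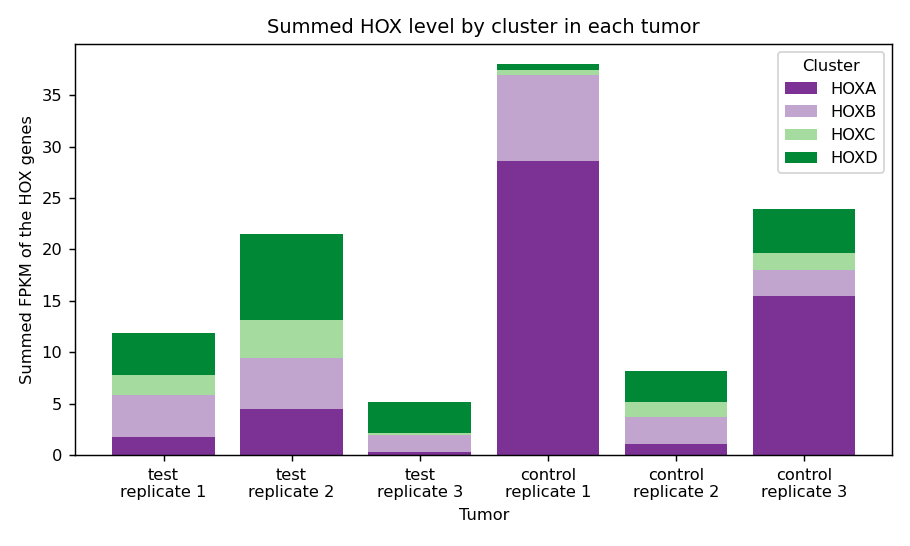
Stacked bars give the summed FPKM of the HOX genes of each cluster (y axis) in each of the 6 tumors (x axis), with 1 color per cluster. HOXA makes up most of the bar in control replicates 1 and 3, at 28.6 and 15.5 FPKM, and at most 4.47 FPKM in the other 4 tumors.

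The make-up of the HOX reads differed between tumors in the same way. HOXA genes held 74.4% of the HOX counts of control replicate 1 (95% exact Clopper-Pearson interval 71.1 to 77.5) and 62.0% of those of control replicate 3 (57.3 to 66.6). In control replicate 2 the share was 12.7% (7.91 to 18.9), and in test replicates 1, 2 and 3 it was 13.7% (9.47 to 18.8), 17.2% (13.8 to 21.1) and 7.69% (3.38 to 14.6). The intervals of control replicates 1 and 3 lay apart from those of the other 4 tumors, whose intervals overlapped. HOXD genes held 37.0%, 47.8% and 57.7% of the HOX counts in the test tumors, and 2.05% (1.15 to 3.36), 42.4% and 20.7% in the control tumors. These intervals rest on 104 to 731 HOX counts per tumor and cover counting error only.

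By position along the clusters, paralog groups 1 to 4 made up 35.1%, 31.4% and 31.9% of the summed HOX FPKM in the test tumors and 81.2%, 20.9% and 65.7% in the control tumors. Groups 5 to 8 made up 40.5%, 29.7% and 39.9% in the test tumors and 16.5%, 51.1% and 19.3% in the control tumors. Groups 9 to 13 made up 24.4%, 38.9% and 28.2% in the test tumors and 2.33%, 28.0% and 15.0% in the control tumors. Each of these shares spanned a wider range over the 3 control tumors than over the 3 test tumors. The share of groups 9 to 13, which hold the genes of the tail end, was lower in control replicates 1 and 3 than in each test tumor. A share also falls where other groups are high. Summed, groups 9 to 13 had 2.9, 8.36 and 1.45 FPKM in the test tumors and 0.89, 2.31 and 3.59 FPKM in the control tumors. Control replicate 3 was thus above test replicates 1 and 3. Groups 5 to 8 had their lowest share in control replicate 1, at a sum of 6.29 FPKM against 6.39 FPKM in test replicate 2, the highest.

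The gene with the highest FPKM among the members also changed from tumor to tumor. It was *Hoxd11* in test replicates 1 and 2 (1.79 and 5.72 FPKM) and in control replicate 2 (1.44 FPKM), and *Hoxd8* in test replicate 3 (1.35 FPKM). In control replicate 1 it was *Hoxa3* (13.23 FPKM) and in control replicate 3 *Hoxa4* (5.51 FPKM), with *Hoxa3* at 5.39 FPKM.

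**Figure D2:**
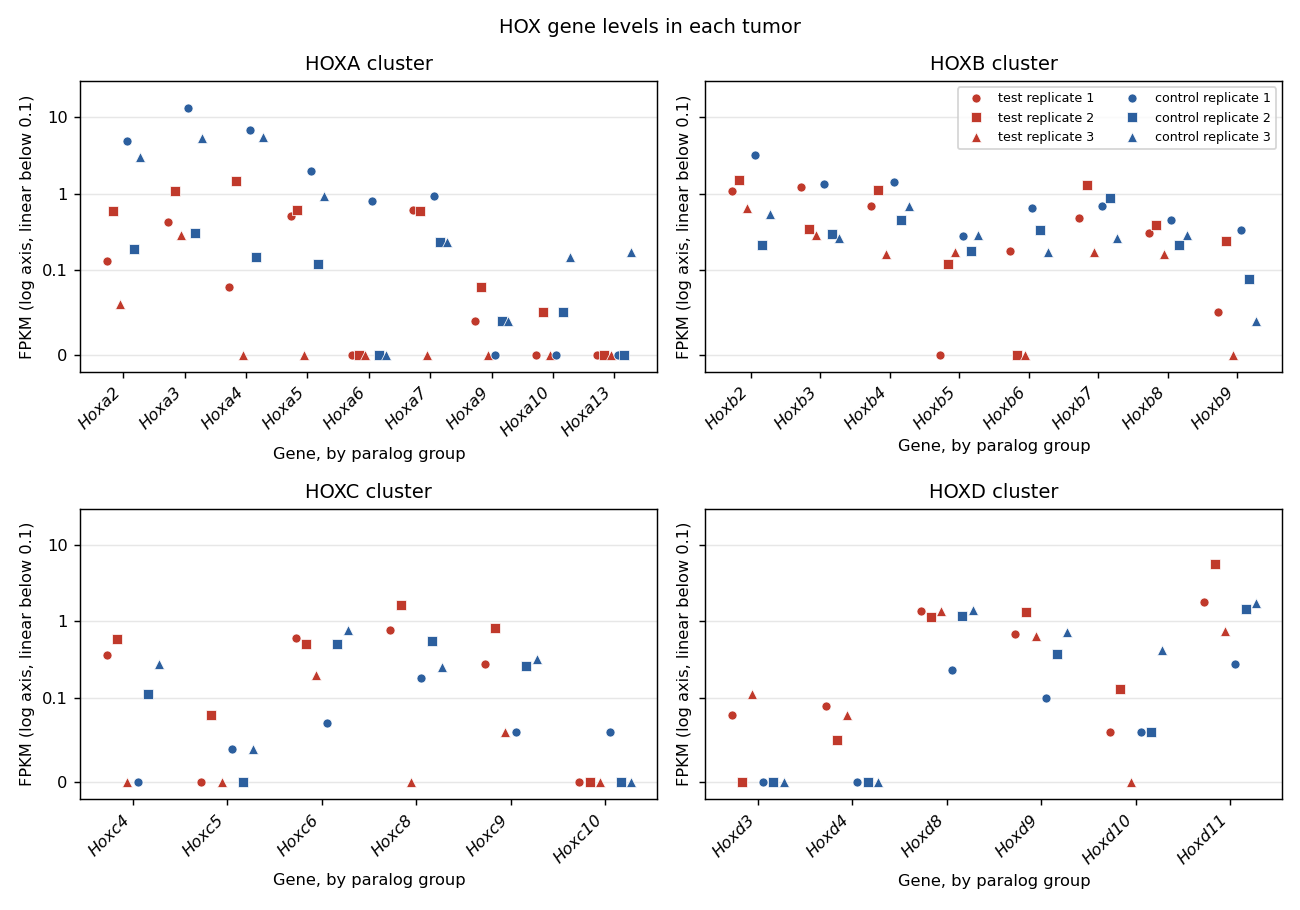
Points give the FPKM (y axis, logarithmic above 0.1 and linear below) of the 29 listed HOX genes (x axis, by paralog group) in 4 panels, 1 per cluster, with red for test and blue for control tumors and 1 symbol per replicate. Control replicates 1 and 3 stand above the other tumors for *Hoxa2*, *Hoxa3* and *Hoxa4*, while in the other 3 panels the colors are mixed.

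To ask which HOX genes differ with the K14-TSLPtg allele, the expected counts were compared between the groups with edgeR's quasi-likelihood test, which covered 13706 genes and 11 of the 38 members. The others had too few counts for the filter. No member reached an adjusted p of 0.05 (Benjamini-Hochberg over all 13706 genes), against a background of 0.0% of all tested genes. Adjusted p-values of the members ran from 0.491 to 0.974. At an unadjusted p under 0.05, 1 member was lower in test (*Hoxa3*) and 0 were higher, where 5.26% of all tested genes were lower and 3.15% were higher. The count lower in test became 0 without control replicate 1, test replicate 1 or test replicate 3 and 3 without control replicate 2 or test replicate 2, and the count higher became 1 without test replicate 3. DESeq2 called 1 member at an adjusted p of 0.05, *Hoxa3*, among 313 genes called. A pooled Poisson test, which leaves out the spread between tumors, called 6 members among 9608 genes. None of the 11 had groups that did not overlap, against 6.12% of all tested genes higher and 5.86% lower in test.

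Among the 11 tested genes, members of a cluster had fold changes of the same sign. All 4 tested HOXA genes (median log2 fold change of test minus control -2.22) and all 3 tested HOXB genes (median -0.33) were below 0, and the 1 tested HOXC gene (1.33) and all 3 tested HOXD genes (median 1.17) were above 0. The median of the 11 was -0.25, with 4 above and 7 below 0, and that of all tested genes was 0.018. The signs of the HOXC and HOXD genes were kept whichever tumor was left out. Without control replicate 1 or test replicate 3, 3 of the 4 HOXA genes were below 0. Without control replicate 1 none of the 3 HOXB genes was below 0, and without test replicate 3 only 1 of them was. The median of the members became 0.52 without control replicate 1 and 0.22 without test replicate 3. With the replicate block and with limma on FPKM, *Hoxb2* was above 0. Without a filter on low counts, *Hoxa9* (0.58), *Hoxb7* (0.07), *Hoxc10* (-1.87) and *Hoxd10* (-1.39) had the sign opposite to that of the tested genes of their cluster. None of these signs belongs to a change that passed the test.

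**Figure D3:**
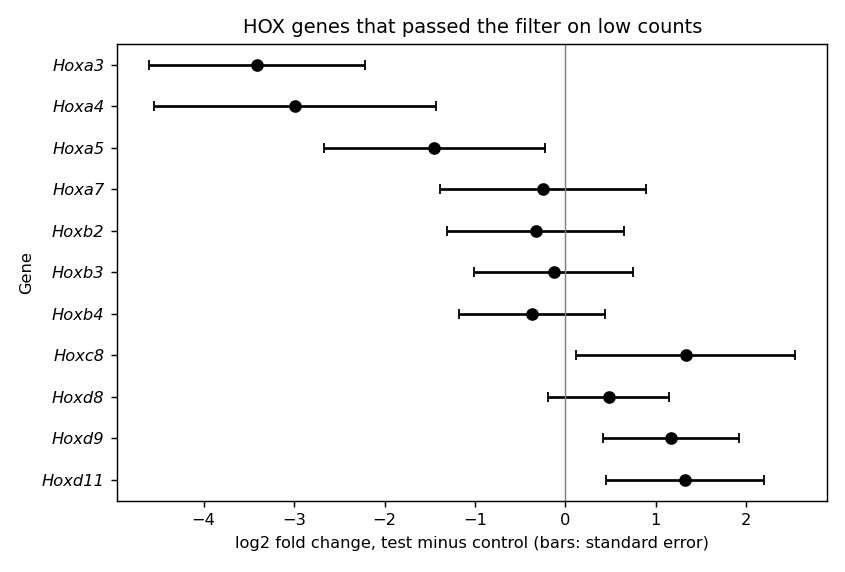
Points give the log2 fold change of test minus control (x axis) of the 11 HOX genes that passed the filter on low counts (y axis), with bars for the standard error from edgeR's quasi-likelihood fit. The HOXA and HOXB genes lie left of 0 and the HOXC and HOXD genes right of it, and *Hoxa3* lies lowest at -3.41.

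The HOXA genes lie on chromosome 6 at 52162417 to 52260880 (GRCm38, the same build as mm10), and 9 of 10 were listed. Their 3′ neighbors *Hoxa2*, *Hoxa3* and *Hoxa4* carried most of the HOXA signal in control replicates 1 and 3. In test replicate 1 *Hoxa7* was the highest HOXA gene, at 0.61 FPKM. *Hoxa2*, which sets the identity of the second pharyngeal arch, spans 52162417 to 52164831. It had 0.13, 0.59 and 0.06 FPKM (2, 9 and 1 counts) in the test tumors and 4.95, 0.19 and 3.05 FPKM (81, 3 and 49 counts) in the control tumors. Control replicates 1 and 3 were high and the groups overlapped through control replicate 2. *Hoxa2* did not pass the filter, and its exact permutation test over the 20 splits of the 6 tumors gave p = 0.2 (two-sided, the smallest possible being 0.1). Without a filter, edgeR gave a log2 fold change of -3.38 (SE 1.19, adjusted p = 0.473).

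*Hoxa3*, which is needed for the thymus and the parathyroid glands, spans 52169059 to 52213067. It had 0.42, 1.09 and 0.29 FPKM (9, 24 and 7 counts) in the test tumors and 13.23, 0.31 and 5.39 FPKM (312, 7 and 125 counts) in the control tumors. The same 2 control tumors were high, and control replicate 2 was at the level of the lowest test tumor. Mean CPM was 1.57 in test and 16.7 in control. The log2 fold change was -3.41 (SE 1.19, unadjusted p = 0.0223, adjusted p = 0.491 by edgeR's quasi-likelihood test), and the exact permutation test gave p = 0.3. Without control replicate 2 it was -3.98 with an adjusted p of 0.0563, and without control replicate 1 it was -2.17. Its unadjusted p was 0.0932 without control replicate 1, 0.0696 without test replicate 1 and 0.0714 without test replicate 3. With DESeq2 it passed the threshold (log2 fold change -3.42, adjusted p = 0.0411). With the replicate block edgeR gave -2.92 (unadjusted p = 0.149). Limma gave -2.32 on log2(FPKM + 0.1) (unadjusted p = 0.096) and -1.65 on log2(FPKM + 1) (unadjusted p = 0.0699).

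*Hoxa4*, a gene of the neck vertebrae, spans 52189682 to 52191703. It had 0.08, 1.45 and 0.00 FPKM (1, 19 and 0 counts) in the test tumors and 6.77, 0.15 and 5.51 FPKM (95, 2 and 76 counts) in the control tumors. Control replicates 1 and 3 were again above every test tumor. Test minus control gave a log2 fold change of -2.99 (SE 1.56, adjusted p = 0.669 by edgeR), with p = 0.2 in the exact permutation test, and without test replicate 2 it was -6.53.

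*Hoxa5*, which acts in the lung and is also studied in breast tumors, spans 52201754 to 52204587. It had 0.51, 0.62 and 0.00 FPKM in the test tumors and 1.96, 0.12 and 0.94 FPKM in the control tumors. Its log2 fold change was -1.45 (SE 1.22, adjusted p = 0.784 by edgeR). Control replicates 1 and 3 were again the highest of the 6 tumors. The span of *Hoxa3* in RefSeq holds that of *Hoxa4* (2022 bases), that of *Hoxa5* (2834 bases) and that of *Hoxa6* (3815 bases). Whether the kit kept the strand is not given in the sources used here, and reads in these shared stretches may have been divided among the genes.

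Farther toward the 5′ end of HOXA the levels fell off. *Hoxa6* was listed in control replicate 1 alone, at 5 counts. *Hoxa7* had 10, 10 and 0 counts in the test tumors and 17, 4 and 4 in the control tumors, and its log2 fold change was -0.25 (SE 1.14, adjusted p = 0.962 by edgeR). *Hoxa9* and *Hoxa10* had at most 3 counts in any tumor, and *Hoxa13* had 2 counts in control replicate 3 alone. Control replicate 1 was thus high for *Hoxa2* to *Hoxa7*, and control replicate 3 for *Hoxa2* to *Hoxa5*.

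The distance between control tumors was wide for these genes by the standard of the series. On the scale of log2(CPM + 0.5), the 3 control tumors spanned 4.86 for *Hoxa3*, a range greater than that of 99.6% of the tested genes. They spanned 4.00 for *Hoxa4* (98.8%), 2.88 for *Hoxb2* (96.4%) and 2.63 for *Hoxa5* (95.1%), where the median of all tested genes was 0.66. The tested genes were not matched for level here, and counting error is wider on this scale at low counts. The FPKM of *Hoxa3* over that of *Hoxa2* was 3.23, 1.85 and 4.83 in the test tumors and 2.67, 1.63 and 1.77 in the control tumors, so the 2 control tumors high for one gene were high for the other. *Hoxa2* was under the floor in test replicates 1 and 3, and the ratios there rest on 2 and 1 counts. In control replicate 2 it was at the floor, and the ratio rests on 3 counts. Test tumors spanned 1.46 for *Hoxa3*, and the median of all tested genes in test was 0.86.

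The HOXB genes lie on chromosome 11 at 96194316 to 96368254, and 8 of 10 were listed, each above the floor in at least 1 tumor. *Hoxb2*, which acts in the hindbrain beside *Hoxb1*, spans 96351632 to 96354020. It had 1.10, 1.5 and 0.65 FPKM (15, 21 and 10 counts) in the test tumors and 3.20, 0.21 and 0.54 FPKM (48, 3 and 8 counts) in the control tumors. Control replicate 1 was the highest and the other 2 control tumors were the lowest of the 6. The log2 fold change was -0.33 (SE 0.98, adjusted p = 0.943 by edgeR), and it was 1.57 without control replicate 1, so the sign rested on that tumor. The exact permutation test gave p = 0.9.

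*Hoxb3* had 1.22, 0.35 and 0.29 FPKM in the test tumors and 1.36, 0.30 and 0.26 FPKM in the control tumors, with 1 high tumor in each group and a log2 fold change of -0.13 (SE 0.88, adjusted p = 0.974 by edgeR). *Hoxb4*, known for expanding blood stem cells, had 0.70, 1.13 and 0.16 FPKM in the test tumors and 1.43, 0.45 and 0.70 FPKM in the control tumors (log2 fold change -0.37, SE 0.81, adjusted p = 0.913). The spans of these neighbors share 3372 bases. The groups overlapped for both. *Hoxb7* had 5, 14 and 2 counts in test and 8, 10 and 3 in control, and *Hoxb8* had 7, 9 and 4 counts in test and 11, 5 and 7 in control. *Hoxb6* and *Hoxb9* had at most 8.28 counts, with the highest value of each in control replicate 1. *Hoxb5* had 0, 2 and 3 counts in test and 5, 3 and 5 in control, so its groups did not overlap after scaling, at levels close to the floor (exact permutation p = 0.1, the smallest possible).

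The HOXC genes lie on chromosome 15 at 102921131 to 103036856, and 6 of 9 were listed. Neither *Hoxc4* nor any other HOXC gene exceeded the floor in all 6 tumors. *Hoxc8*, a gene of the thoracic skeleton and forelimb motor neurons, had 0.78, 1.64 and 0.00 FPKM (15.5, 33.6 and 0 counts) in the test tumors and 0.18, 0.55 and 0.25 FPKM (4.1, 11.5 and 5.3 counts) in the control tumors. Test replicates 1 and 2 were above every control tumor and test replicate 3 was below them all. Its log2 fold change was 1.33 (SE 1.21, adjusted p = 0.788 by edgeR). *Hoxc6* had 8, 7 and 3 counts in test and 1, 7 and 11 in control, and *Hoxc9* had 4, 12 and 1 counts in test and 1, 4 and 5 in control. *Hoxc4* reached 10 counts in test replicate 2 and was at 0 in test replicate 3 and control replicate 1. *Hoxc5* and *Hoxc10* had at most 2 counts. Control replicate 1 and test replicate 3 were the low tumors of this cluster.

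The HOXD genes lie on chromosome 2 at 74668225 to 74765142, and 6 of 9 were listed. *Hoxd11*, which builds the forearm and the kidney together with its paralogs, spans 74679558 to 74687016 and was the highest of them. It had 1.79, 5.72 and 0.74 FPKM (50.8, 167.2 and 23.8 counts) in the test tumors and 0.28, 1.44 and 1.72 FPKM (8.6, 43.5 and 53.3 counts) in the control tumors. Test replicates 1 and 2 were above every control tumor, and test replicate 3 lay within the control range. The log2 fold change was 1.32 (SE 0.87, adjusted p = 0.718 by edgeR), and the exact permutation test gave p = 0.4. Without test replicate 2 the log2 fold change was 0.14. Its span shares 2744 bases with that of *Hoxd10*, which had 1, 2 and 0 counts in test and 1, 1 and 7 in control.

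*Hoxd8*, a gene of the trunk, spans 74704615 to 74707933 and had the narrowest range over the 3 test tumors among the tested members. It had 1.35, 1.15 and 1.35 FPKM (16, 14 and 18 counts) in the test tumors and 0.23, 1.19 and 1.40 FPKM (3, 15 and 18 counts) in the control tumors. Control replicate 1 was low, and the other 5 tumors lay between 1.15 and 1.40 FPKM. The 3 test tumors spanned 0.13 on the log2(CPM + 0.5) scale, a range greater than that of 2.05% of the tested genes. Its log2 fold change was 0.48 (SE 0.67, adjusted p = 0.856 by edgeR, exact permutation p = 0.4), and 0.04 without control replicate 1.

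*Hoxd9*, of the paralog group that acts in mammary growth, spans 74697763 to 74700208. It had 0.68, 1.33 and 0.65 FPKM in the test tumors and 0.10, 0.37 and 0.73 FPKM in the control tumors, with control replicate 3 inside the test range. Its log2 fold change was 1.17 (SE 0.75, adjusted p = 0.711 by edgeR). *Hoxd3* and *Hoxd4* were listed in test tumors alone, *Hoxd3* at 2, 0 and 3 counts and *Hoxd4* at 2, 1 and 2 counts. Neither was above the floor, and for *Hoxd4* the groups did not overlap. The spans of this pair share 7183 bases. Control replicate 1 was the lowest of the 6 tumors for *Hoxd8*, *Hoxd9* and *Hoxd11*, where it was the highest for *Hoxa2* to *Hoxa7* and for *Hoxb2* to *Hoxb4*.

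Leaving out 1 tumor at a time shows which tumors set the overlap of the groups. Without control replicate 2, *Hoxa3*, *Hoxa4* and *Hoxa5* were lower in each test tumor than in both control tumors left, where 18.8% of all tested genes were. Without test replicate 2 this held for *Hoxa4*, where 11.0% of all tested genes were lower. Without test replicate 3, *Hoxc8* and *Hoxd11* were higher in each test tumor left than in each control tumor, where 11.5% of all tested genes were. *Hoxd8* and *Hoxd9* were higher without control replicate 3 (8.64% of all tested genes) and *Hoxb2* was higher without control replicate 1 (8.17%). Without test replicate 1, no tested member had groups that did not overlap.

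The 9 cofactor genes were all listed. The 8 that were tested all had log2 fold changes below 0 (median -0.60), where 48.5% of all tested genes did. Of the 8, 2 had an unadjusted p under 0.05, where 5.26% of all tested genes were lower in test at that level. None reached an adjusted p of 0.05, against 0.0% of all tested genes. *Meis1*, a partner of HOX proteins in blood and limb, lies on chromosome 11 at 18880428 to 19019651. It had 1.21, 5.87 and 2.19 FPKM in the test tumors and 16.76, 29.28 and 32.31 FPKM in the control tumors. The groups did not overlap, and control replicate 2 was as high as the other control tumors, unlike for the HOXA genes. The log2 fold change was -3.03 (SE 0.61, unadjusted p = 0.00121, adjusted p = 0.394 by edgeR). *Pknox1*, of the related PKNOX family, had 3.29, 2.87 and 4.46 FPKM in test and 5.27, 7.48 and 5.85 FPKM in control (log2 fold change -0.80, SE 0.29, adjusted p = 0.506). For *Pknox1*, too, the groups did not overlap. In CPM, 3 of the 8 tested cofactors had groups that did not overlap, all lower in test, against 5.86% of all tested genes. *Meis2* stayed under 1 FPKM in every tumor.

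**Figure D4:**
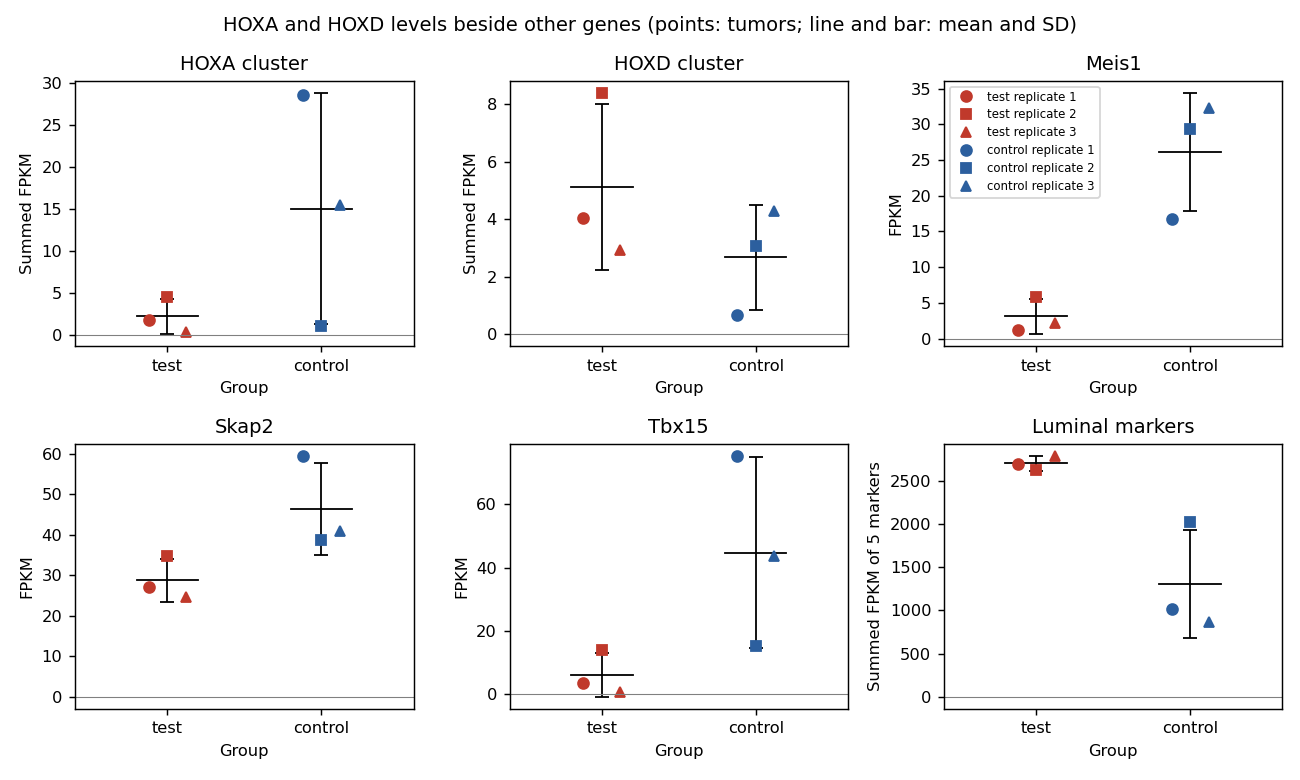
Points give the summed FPKM of the HOXA and HOXD genes, the FPKM of *Meis1*, *Skap2* and *Tbx15*, and the summed FPKM of 5 luminal markers (y axes) in the test and control tumors (x axes, n = 3 each), with lines for the mean and bars for the SD. Control replicate 2 (blue square) lies low for HOXA and *Tbx15*, at 1.09 and 15.07 FPKM, and with the other control tumors for *Meis1*, at 29.28 FPKM.

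The genes that keep HOX clusters silent or active had median log2 fold changes near 0. All 23 Polycomb genes were tested, 13 with log2 fold changes above and 10 below 0 (median 0.03). At an unadjusted p under 0.05, 0 were higher in test (3.15% of all tested genes) and 1 was lower (5.26%). That was *Cbx6*, a chromobox protein of Polycomb complexes (log2 fold change -0.66, SE 0.28, adjusted p = 0.591 by edgeR). *Cbx8*, another chromobox gene, had 4.69, 4.14 and 12.98 FPKM in test and 1.70, 3.20 and 4.24 FPKM in control, so the groups overlapped in FPKM. They did not overlap in CPM, where test was 6.34, 6.10 and 18.3 and control 2.55, 4.33 and 5.75 (log2 fold change 1.28, SE 0.57, adjusted p = 0.618). *Eed*, a core subunit of the complex that methylates histone H3, was higher in each test tumor than in each control tumor (log2 fold change 0.32, SE 0.23, adjusted p = 0.752). In CPM, 2 of the 23 had groups that did not overlap with test higher (6.12% of all tested genes), and 1 with test lower (5.86%). *Ezh2*, the enzyme of the complex that holds *Eed*, had a log2 fold change of -0.08 (SE 0.28). *Rbbp7* was the highest of the list, at 64.66 to 85.07 FPKM over the 6 tumors. All 13 Trithorax genes were tested, 5 above and 8 below 0 (median -0.04), and 0 had an unadjusted p under 0.05. *Kmt2a*, a histone methyltransferase that keeps HOX genes active, had a log2 fold change of -0.29 (SE 0.31), and *Dpy30* was the highest of the list, at 62.71 to 153.97 FPKM.

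Of 14 other regulators of HOX genes, 11 were tested, 3 had an unadjusted p under 0.05, all lower in test and without overlap (5.26% and 5.86% of all tested genes), and 0 had an adjusted p of 0.05 or less. *Gdf11*, a growth factor that sets the trunk to tail boundary, had 0.40, 0.71 and 0.23 FPKM in the test tumors and 2.16, 2.73 and 2.19 FPKM in the control tumors (log2 fold change -2.37, SE 0.58, adjusted p = 0.394 by edgeR). *Cyp26b1*, which breaks down retinoic acid, had 0.70, 0.95 and 1.00 FPKM in test and 4.67, 1.23 and 2.91 FPKM in control (log2 fold change -1.74, SE 0.55, adjusted p = 0.469). *Rarg*, a retinoic acid receptor, had 21.19, 21.74 and 20.50 FPKM in test and 35.60, 32.12 and 30.58 FPKM in control (log2 fold change -0.63, SE 0.22, adjusted p = 0.505). Retinoic acid is a known inducer of the 3′ HOX genes. *Cdx1* and *Cdx2* were listed in no tumor.

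Genes beside the clusters were read to see whether their levels moved with the HOX genes. Of 15 flanking genes, 10 were tested, 5 above and 5 below 0 (median 0.04), and 0 had an unadjusted p under 0.05. *Skap2*, an adaptor protein gene next to HOXA on chromosome 6 at 51859165 to 52012549, had 27.08, 34.70 and 24.56 FPKM in the test tumors and 59.46, 38.77 and 40.92 FPKM in the control tumors. Within each group the order of the tumors was that of the summed HOXA level. The groups did not overlap, and the log2 fold change was -0.69 (SE 0.30, unadjusted p = 0.0558, adjusted p = 0.606 by edgeR). *Cbx5*, a heterochromatin protein gene near HOXC, was also lower in each test tumor (log2 fold change -0.52, SE 0.25, adjusted p = 0.647), and *Hnrnpa1*, beside it, was the highest of the list, at 82.59 to 261.02 FPKM. *Skap2* and *Cbx5* were the 2 tested flanking genes without overlap, both lower in test, against 5.86% of all tested genes. Of 17 noncoding RNAs of the clusters with a matched identifier, *Hoxaas3* was listed, at 1 count in control replicate 1, and the others were not listed. Whether the others, among them microRNAs, were in the authors' gene reference is not given in the sources used here. Their not being listed thus does not show that they were absent.

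Genes that mark positions in the limb and body wall were read in the same way. Of 12, 4 were tested. *Tbx15*, a T-box gene of the limb skeleton and of skin and fat precursors, lies on chromosome 3 at 99240348 to 99354260. It had 3.57, 14.01 and 0.82 FPKM in the test tumors and 75.33, 15.07 and 43.80 FPKM in the control tumors, and control replicate 2 was close to test replicate 2. The order of the 3 control tumors, and of the 3 test tumors, was that of the summed HOXA level. *Skap2* had that order too, and the share of all genes with it was not counted. The log2 fold change of *Tbx15* was -2.86 (SE 1.02, unadjusted p = 0.0245, adjusted p = 0.506 by edgeR). *Tbx3*, a T-box gene needed for the mammary bud, had 2.35, 0.50 and 0.40 FPKM in test and 0.36, 0.38 and 0.30 FPKM in control (log2 fold change 1.61, SE 0.74, adjusted p = 0.627). *En1*, a gene of the ventral limb, was not tested, and its highest level was 0.87 FPKM.

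Summed marker levels of some cell types differed between tumors along with HOXA. The summed level of the 5 luminal markers was 2700, 2620 and 2790 FPKM in the test tumors and 1020, 2020 and 866 FPKM in the control tumors, so that control replicates 1 and 3, which were high in HOXA, were lowest in this sum. *Krt19* differed, at 147.39 FPKM in control replicate 1 and 97.93 FPKM in control replicate 2. All 5 luminal markers had log2 fold changes above 0 (median 1.01), and *Krt8* (1.22), *Krt18* (1.01) and *Krt19* (1.82) had an unadjusted p under 0.05. At that level 3.15% of all tested genes were higher in test and 5.26% were lower. The summed level of 10 skeletal muscle markers was 530, 121 and 64.7 FPKM in the test tumors and 4.83, 110 and 3.65 FPKM in the control tumors, lowest in the same 2 tumors, with *Ckm* at 0 in control replicate 1. The 6 myoepithelial markers summed to 390, 251 and 212 FPKM in test and 224, 166 and 1060 FPKM in control. One of them had an unadjusted p under 0.05, *Trp63*, a transcription factor of basal epithelial cells, with 5.58, 1.61 and 4.48 FPKM in test and 99.26, 4.01 and 15.80 FPKM in control. It was highest in the 2 tumors with high HOXA (log2 fold change -3.15, SE 1.09, adjusted p = 0.491 by edgeR). *Oxtr* was also highest there, at 14.66 and 33.29 FPKM in control replicates 1 and 3. *Krt14*, *Krt5* and *Myh11* went the other way in control replicate 1, at 8.72, 3.66 and 1.03 FPKM, each the lowest of the 6 tumors. *Acta2* was at 97.07 FPKM in that tumor, within the test range. In control replicate 3 *Krt5*, *Myh11* and *Acta2* were the highest of the 6. The 7 fibroblast markers summed to 373, 1020 and 411 FPKM in test and 234, 632 and 422 FPKM in control, highest in test replicate 2, which was also highest for HOXC and HOXD. Of these markers *Col1a1*, *Col1a2*, *Col3a1* and *Lum* were highest in that tumor, and the others were not. *Dcn* was at 107.48 FPKM there against 209.85 FPKM in test replicate 1. *Pdgfra* was at 2.99 FPKM against 5.66 FPKM in control replicate 2, and *Fap* at 2.83 FPKM against 5.94 FPKM in control replicate 3.

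The summed level of leukocyte markers was higher in the tumors with high HOXA, though not that of each marker. The 6 leukocyte markers summed to 24.1, 30.2 and 33.4 FPKM in test and 39.9, 28.9 and 59.8 FPKM in control, with control replicates 1 and 3 above the other 4 tumors. *Itgam* had an unadjusted p under 0.05 (log2 fold change -0.76), and *Cd3e* was at 0.30 FPKM in control replicate 1 against 0.37 FPKM in test replicate 3. The 6 adipocyte markers summed to 334, 94.8 and 23.5 FPKM in the test tumors and 36.9, 19.0 and 31.4 FPKM in the control tumors, with *Lep* at 0 in test replicates 2 and 3 and control replicate 1. The 5 endothelial markers summed to between 29.3 and 41.8 FPKM in the 6 tumors, the 5 epidermal markers to between 1.17 and 5.99 FPKM with *Flg* at 0 in all, and the 7 matched hair follicle markers to between 0.61 and 4.63 FPKM with *Krt35* at 0 in all. At an unadjusted p under 0.05 and higher in test were also *Pygm* (3.32) and *Actn3* (3.21) of muscle, *Adipoq* (4.31) and *Fabp4* (2.03) of adipocytes and *Tchh* (2.68) of hair follicle, as log2 fold changes, and no marker had an adjusted p of 0.05 or less. *Adipoq* was at 39.49 FPKM in test replicate 1 and 0.26 FPKM in test replicate 3, against 1.57 FPKM in control replicate 2. *Tchh* was at 2.69 FPKM in test replicate 3 and at 0.39 and 0.26 FPKM in test replicates 1 and 2. Of other hair follicle markers, *Krt71* and *Krt25* were highest in control replicate 3 (2.00 and 1.20 FPKM). *Krt27* and *Msx2* were highest in test replicate 2 (1.03 and 2.10 FPKM). Of 3 satellite cell markers *Pax7* was at 0 in all 6 tumors. The part of these cells in the HOX levels was not tested.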

How the data were processed

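Total RNA of 6 mouse breast tumors (3 test, 3 control) was sequenced by a service provider, Beijing Genomics Institute, with Illumina HiSeq instruments. Reads were aligned to mm10 with Bowtie, and the submitters' processing notes also name BWA and RSEM. The authors deposited, per gene and tumor, an expected count without any scaling, the gene length, and an FPKM that scales the count by that length and by depth. Genes not listed for a tumor were set to 0. Of 18460 genes, 18400 were matched to a RefSeq symbol by NCBI Gene identifier.

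Expected counts were rounded and tested in edgeR 4.0.16 (R 4.3.3, filterByExpr, TMM, quasi-likelihood test, no covariate, Benjamini-Hochberg over 13706 genes), after the script was tested on simulated data. Sums by cluster use FPKM. Total counts per tumor were 8373390 to 9449565, and intervals and the floor of 3 counts cover counting error only. The standard error is the log2 fold change divided by the square root of F. Exact permutation tests (two-sided, 20 splits, log2(CPM + 0.5)) cannot give a p below 0.1.

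The members and lists were chosen with earlier results of these data known. Values by tumor were given for members with a mean of at least 1 FPKM or an unadjusted p under 0.05, and for members without overlap with over 10 counts in a tumor. From the other lists, genes with an unadjusted p under 0.05 or without overlap were named, with the highest gene of each list. Some genes that this rule names are not reported here. *Hoxa5*, *Hoxa7*, *Hoxb3* to *Hoxb5*, *Hoxb7*, *Hoxb8*, *Hoxc6*, *Hoxc8*, *Hoxc9*, *Hoxd9*, *Hoxd10*, *Ezh2* and *Kmt2a* fall outside that rule and were described after their values were seen.

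Alternatives were DESeq2 1.42.0, RLE scaling, no filter, at least 10 counts in every tumor, limma 3.58.1 on log2(FPKM + 1) and log2(FPKM + 0.1), a pooled Poisson test, a replicate block and leaving out each tumor. Counts by cluster without each tumor were added after the data were seen. Sequences are from RefSeq on GRCm38.p6. Protein sequences were not used here.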

Additional observations from a re-analysis of the deposited data

How the results depend on the processing

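No member was called at an adjusted p of 0.05 by edgeR's quasi-likelihood test with RLE scaling, without a filter, with the replicate block or without any 1 tumor, nor by limma. DESeq2 called 1 (*Hoxa3*) and the pooled Poisson test 6 (*Hoxa3*, *Hoxa4*, *Hoxa5*, *Hoxc8*, *Hoxd9* and *Hoxd11*). Over all tested genes the count was 0 with edgeR, 313 with DESeq2, 9608 with the pooled Poisson test and 1 with limma on log2(FPKM + 1), and it ran from 0 to 182 when 1 tumor was left out, the highest without control replicate 2. The Poisson test is built on counts summed within each group, and the cause of the other differences was not tested. The median log2 fold change of the tested members ran from -0.97 (limma on log2(FPKM + 0.1)) to 0.52 (without control replicate 1), and its sign was above 0 also with the replicate block (0.03) and without test replicate 3 (0.22). *Hoxb2* changed sign, to 0.38 with limma on log2(FPKM + 0.1), 0.05 with limma on log2(FPKM + 1), 0.35 with the replicate block and 1.57 without control replicate 1, where leaving out 1 tumor at a time gave -0.84 to 1.57. Without 1 tumor, *Hoxa3* ran from -4.21 to -2.17, *Hoxa4* from -6.53 to -2.37, *Hoxd8* from 0.04 to 0.87 and *Hoxd11* from 0.14 to 1.79. The 24 cluster sums and 18 shares by position moved by less than the spread between tumors with CPM per kilobase. That measure uses the same counts and the mean gene length, so it is no independent check of the FPKM. With at least 10 counts in every tumor no member was left to test. The replicate numbers name different mice, deviations of same-numbered tumors correlated at -0.032, 0.10 and -0.139, and the replicate block called 0 genes. Depth limits what can be said of the 27 members with too few counts for the test.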
